A study of Homo sapiens and Mus musculus with 20 samples.

Results

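The regions described here are Satb1 ChIP-seq peaks found after inhibition of topoisomerase II with ICRF-193 and absent both from untreated cells and from cells treated with the topoisomerase I inhibitor camptothecin. They were chosen by position alone: a peak of the ICRF-193 list was a member if it shared not a single base with any peak of the untreated list or of the camptothecin list. The rule found 11583 members among 37350 ICRF-193 peaks, which is 31% of that list. This share is the rule itself and is given as a description. Because the number of members depends on what passed the peak caller in 3 lists, with 1 deposited list for each condition, it carries no replicate error and no test.

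All of these lists came from MCF10A, an immortalised human mammary epithelial line of basal character that has no Satb1 of its own and was made to express a fusion of Satb1 with green fluorescent protein. For its genomic work the study names an antibody against green fluorescent protein and another against Satb1. As the line lacks native Satb1, the lists report the fusion and not a native factor. Full-length Satb1 was mapped in untreated cells and in cells given camptothecin or ICRF-193 for 2 h, without a dose in the labels. 2 truncated fusions were mapped without drug: ∆HD, which lacks the homeodomain, and N-C1, which keeps the N-terminal domain and the CUT1 domain. Open chromatin was mapped by ATAC-seq in native MCF10A and in cells expressing Satb1. Each condition had 1 deposited list, although the study's methods state that its genomic experiments were done in duplicate. How the duplicates entered each list is not given in the sources used here, and their spread could not be used.

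Satb1 binds A/T-rich DNA through a pair of CUT domains and a homeodomain and forms multimers through its N-terminal domain. It is best known in thymocytes, where it arranges chromatin into loops, and its classic targets are base-unpairing regions, stretches that open readily under negative supercoiling. Topoisomerases I and II remove the supercoils that polymerases and remodelling leave behind. Camptothecin traps topoisomerase I on DNA, whereas ICRF-193 locks topoisomerase II as a closed clamp without a lasting break.

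The sequences below show what the members look like, each as 200 bp of hg19 on the plus strand about the peak midpoint. Capitals mark the Satb1 consensus heptamer, counted in 4 kinds on both strands, with overlapping matches included. The first kind was TTAATAA, which reads TTATTAA on the other strand, and the second CTAATAA, which reads TTATTAG there. The third was TTAATAG, which reads CTATTAA there, and the fourth CTAATAG, which reads CTATTAG there. The CHD6 intron held the strongest member and no heptamer at all. The GFRA1 intron and the region chr4:157308585-157308972 between genes were members of very high A/T content, and the region in the PTH2R span, which lies outside its protein-coding transcripts, carried 9 matches in 400 bp. The MRPS9 intron was a tandem repeat in which the matches stood in a sequence of ordinary A/T content. The EYA3 intron was a member of median strength, picked after the values were seen as an example of the many. The site near OR8D1 was the strongest member found in both ATAC-seq lists, and the SETDB2 and TSHB sites lay at promoters.
CHD6 intron chr20:40173204-40173403: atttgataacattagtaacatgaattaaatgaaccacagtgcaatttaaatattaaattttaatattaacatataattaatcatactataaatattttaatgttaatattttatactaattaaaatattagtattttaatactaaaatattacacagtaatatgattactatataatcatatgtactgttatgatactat
GFRA1 intron chr10:118003797-118003996: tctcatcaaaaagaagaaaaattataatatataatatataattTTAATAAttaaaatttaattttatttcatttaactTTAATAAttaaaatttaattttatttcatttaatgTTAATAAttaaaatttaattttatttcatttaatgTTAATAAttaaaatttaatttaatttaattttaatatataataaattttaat
Between genes, chromosome 4 chr4:157308679-157308878: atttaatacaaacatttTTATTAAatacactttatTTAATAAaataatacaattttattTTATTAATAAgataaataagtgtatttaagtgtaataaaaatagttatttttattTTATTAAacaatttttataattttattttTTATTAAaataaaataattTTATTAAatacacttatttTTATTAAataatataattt
PTH2R span chr2:209637828-209638027: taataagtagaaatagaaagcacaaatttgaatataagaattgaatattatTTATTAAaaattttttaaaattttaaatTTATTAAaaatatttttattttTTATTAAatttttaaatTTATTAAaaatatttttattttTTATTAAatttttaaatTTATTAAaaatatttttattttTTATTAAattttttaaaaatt
MRPS9 intron chr2:105671046-105671245: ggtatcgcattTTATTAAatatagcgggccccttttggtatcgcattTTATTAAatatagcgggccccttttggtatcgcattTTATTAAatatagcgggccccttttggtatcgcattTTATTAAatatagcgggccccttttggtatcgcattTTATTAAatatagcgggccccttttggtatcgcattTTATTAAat
EYA3 intron chr1:28360680-28360879: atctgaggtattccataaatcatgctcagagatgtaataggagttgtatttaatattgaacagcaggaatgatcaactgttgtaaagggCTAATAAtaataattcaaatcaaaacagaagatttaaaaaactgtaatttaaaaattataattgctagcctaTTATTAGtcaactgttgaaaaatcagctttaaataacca
Near OR8D1 chr11:124171120-124171319: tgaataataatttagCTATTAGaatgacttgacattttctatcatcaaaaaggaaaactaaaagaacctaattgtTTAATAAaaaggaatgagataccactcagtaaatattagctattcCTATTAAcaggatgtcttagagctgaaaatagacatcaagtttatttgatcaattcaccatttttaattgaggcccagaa
SETDB2 promoter chr13:50024998-50025197: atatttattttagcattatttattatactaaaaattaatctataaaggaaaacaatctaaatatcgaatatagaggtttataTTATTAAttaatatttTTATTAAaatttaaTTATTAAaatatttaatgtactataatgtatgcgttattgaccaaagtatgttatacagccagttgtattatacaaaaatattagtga
TSHB promoter chr1:115572088-115572287: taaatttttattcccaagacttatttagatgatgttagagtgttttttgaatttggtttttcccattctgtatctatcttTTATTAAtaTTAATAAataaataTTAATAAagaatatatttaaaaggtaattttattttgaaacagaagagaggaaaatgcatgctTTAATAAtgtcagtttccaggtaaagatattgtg

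The members were weak peaks. Fold enrichment, the ratio of reads at the summit to the local background as MACS2 computes it with a pseudocount, had a median of 5.19 (quartiles 4.60 and 5.77) in the members and ranged from 1.90 to 11.4. The other 25767 ICRF-193 peaks had a median of 8.44 (quartiles 6.36 and 12.8) and reached 86.6. Among these, the 4605 peaks also in the camptothecin list but not in untreated cells had a median of 6.16, the 2839 also in untreated cells but not after camptothecin 5.97, and the 18323 in all 3 lists 10.3. The median −log10 q was 6.05 in the members and 16.6 in the others, and the median widths were 292 and 408 bp. At summits where the fold could be turned back into reads, the members had a median of 25 reads (quartiles 23 and 29, range 16 to 57, n = 9810) and the others 42. Hence the rule selected mostly from the bottom of the list: with the ICRF-193 list divided at its quartiles of fold into 4 groups, members made up 70.9% of the weakest group, 45.0% of the second, 10.6% of the third and 0.169% (16 of 9469) of the strongest.

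**Figure D1:**
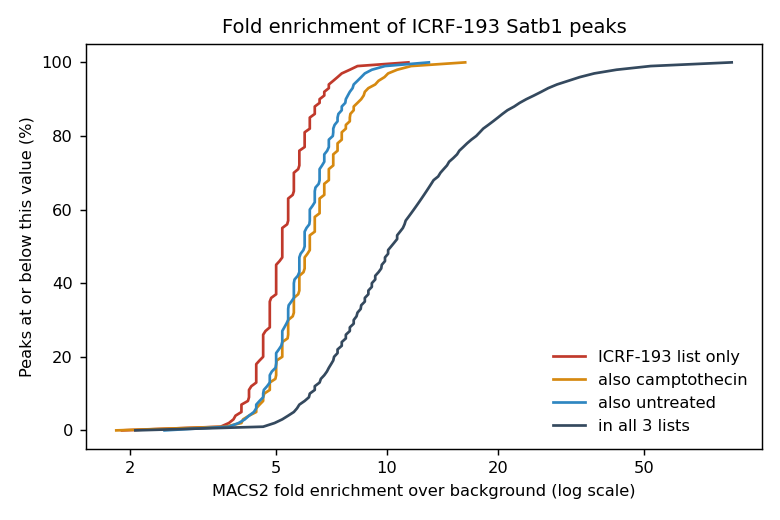
Cumulative share of peaks (percent) against fold enrichment (log axis) for 4 classes of ICRF-193 peak. The members form the leftmost curve, with a median of 5.19, and the peaks in all 3 lists the rightmost, with a median of 10.3.

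Depth bears on the same rule and was read from the peak lists themselves. Solving the MACS2 definitions for the peaks at the genome-wide background gave whole reads (within 0.02) for 99.97% of 30608 such peaks in the ICRF-193 list. The mean coverage behind the list came to 3.54 extended reads per position after ICRF-193, 3.82 after camptothecin and 4.83 in untreated cells, so that the untreated list was made at 1.36 times the coverage of the ICRF-193 list. The fewest reads of a peak at background were 16, 17 and 25 and the smallest fold there was 3.43, 3.38 and 3.76 in the same order. Of the members, 97.8% (11323 of 11583) had a fold after ICRF-193 of at least 3.76, the smallest at background in the untreated list. The lists give no fold for these sites in untreated cells, so this does not show whether they would have passed there. The narrowest peak was 250 bp in both drug lists and 219 bp in the untreated list. Coverage depends on the length to which reads were extended as well as on their number. That length is not given. As scaled by MACS2, the genome-wide background was 2.23 in both drug lists and 1.95 in the untreated list. On that scale 1 read counted 0.630 after ICRF-193, 0.584 after camptothecin and 0.404 in untreated cells. The length may differ between the lists, as the narrowest peaks do, so 1.36 is not a ratio of read numbers. The part that depth and the peak calling settings had in membership was not tested.

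Few members were near misses of an overlap. The median gap to the closest untreated or camptothecin peak was 21884 bp (quartiles 7792.5 and 52023 bp), and 70.1% of the members lay more than 10000 bp away. Only 26 members had such a peak within 100 bp and 279 within 500 bp, the closest at 2 bp. Just outside the rule stood 3 ICRF-193 peaks that overlapped a peak of another list by 50 bp or less, with folds from 4.21 to 5.58. The 26 members just inside had a median fold of 5.09 (quartiles 3.69 and 7.53). The camptothecin list held far fewer peaks of its own kind: 1198 of its 24475 peaks, or 4.89%, overlapped neither of the other lists, and their median fold was 4.65.

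The consensus heptamer was present in nearly every member. In 400 bp at the midpoint, 94.2% of the members (95% Clopper-Pearson interval 93.7 to 94.6%, 10909 of 11583) held at least 1 match, against 96.3% of the other ICRF-193 peaks and 25.8% of all 400 bp tiles of hg19. Such intervals cover counting error only, and neighbouring peaks are not independent. Tiles as rich in A/T as the members held the heptamer more often than hg19 at large. Outside every MCF10A Satb1 list, 43.4% of tiles with 70 to under 75% A/T in their central 200 bp held a match. At 75 to under 80% A/T the share was 50.3%, and the means were 0.565 and 0.693 matches per tile. The members and the others parted more in the number of matches than in their presence. The mean was 2.12 ± 1.12 (SD over peaks) in the members and 2.71 ± 1.55 in the others, 2.88 in peaks of all 3 lists and 1.98 in the camptothecin-only peaks, where hg19 at large holds 0.327 per 400 bp. At least 4 matches were found in 10.0% of the members and 23.8% of the others, and 7 or more in 0.138% (16 members) and 1.56% (403 peaks). The share of ICRF-193 peaks that were members thus went from 41.1% at no match and 42.1% at 1 match to 35.7%, 27.8%, 19.4%, 11.3% and 4.90% at 2, 3, 4, 5 and 6 matches, and to 3.82% at 7 or more. Fold enrichment varies with match number too, and within the weakest fold group the means were 2.05 in the members and 2.13 in the others.

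**Figure D2:**
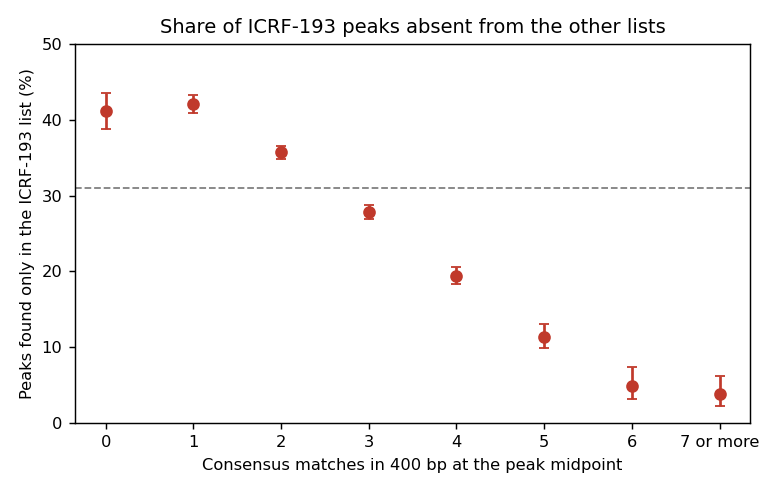
Share of ICRF-193 peaks that were members (percent, with 95% Clopper-Pearson intervals) by the number of heptamer matches in 400 bp, with a dashed line at the 31% of the whole list. The share lies at 41.1% and 42.1% at 0 and 1 match and at 3.82% at 7 or more.

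The nearest match stood a median of 22 bp from the member's summit (quartiles 8 and 49 bp) and 14 bp in the other peaks. It lay within 25 bp of the summit in 51.2% of the members and 65.3% of the others. Of the 4 kinds of heptamer, TTAATAA with its reverse complement made up 51.1% of the matches in members, 49.5% in others and 44.8% in hg19. CTAATAA with its complement followed with 25.4%, 27.8% and 22.5%, TTAATAG with 15.8%, 14.3% and 21.6%, and CTAATAG with 7.75%, 8.34% and 11.1%. Members and others therefore had the same order of kinds. Among the members themselves, the median fold went from 4.99 without a match and 5.19 with 1 to 3 matches to 5.28, 5.38, 5.77 and 6.38 with 4, 5, 6 and 7 or more. The 16 members with 7 or more matches had a mean fold of 6.78 and a mean A/T content of 87.7%. Strength and match number did not go hand in hand at the top: the member with 11 matches, chr2:230983545-230983985 between genes, had a fold of 6.41, while the strongest member in the CHD6 intron had none.

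A/T content set the members apart from the genome but scarcely from the other peaks. The central 200 bp averaged 73.6% ± 4.63 A/T (SD, n = 11578) in the members and 73.2% ± 5.17 in the other ICRF-193 peaks, against 59.1% in hg19. 5 members lay where the GRCh37 sequence used here holds no bases at the midpoint, so they had no A/T value and counted as holding no match. The flanks, taken 1000 to 2000 bp away on both sides, averaged 63.4% in the members and 62.9% in the others, and 96.5% of the members exceeded their own flanks. At 50 bp resolution the centre reached 74.6% in the members, 74.9% in peaks of all 3 lists and 75.7% in peaks shared with camptothecin alone. Within each fold group the members were the more A/T-rich. Their means were 73.0%, 74.0%, 75.9% and 82.5% from the weakest fold group to the strongest, the last of only 16 members, where the other peaks had 70.6%, 71.9%, 73.0% and 74.8%.

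**Figure D3:**
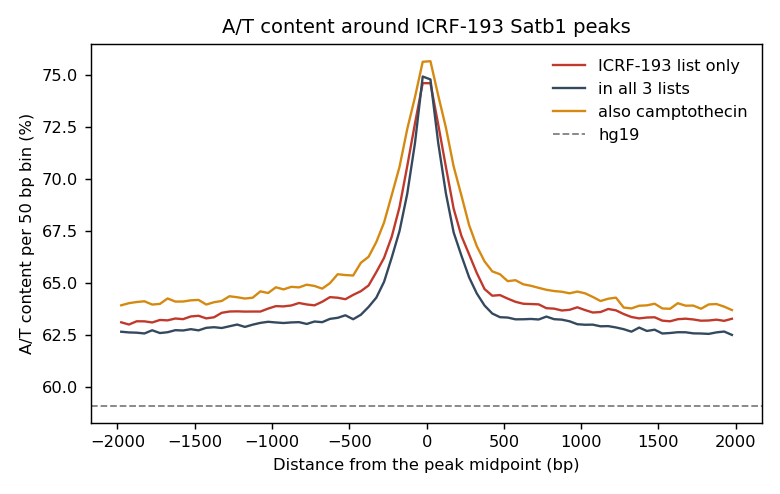
Mean A/T content (percent) in 50 bp bins from 2000 bp before to 2000 bp after the peak midpoint for members, peaks of all 3 lists and peaks shared with camptothecin alone, with a dashed line for hg19. The 3 curves peak at 74.6%, 74.9% and 75.7% over 59.1% for hg19, and on the shoulders the peaks shared with camptothecin alone lie highest (70.6% at 175 bp before the midpoint, against 68.6% in members and 67.5% in peaks of all 3 lists).

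Many members coincided with peaks of the truncated proteins, mapped without drug, although the full-length protein gave no peak there without drug. ∆HD peaks overlapped 52.1% of the members (51.2 to 53%, 6032 of 11583), below the 74.3% of the whole ICRF-193 list and the 84.3% of its other peaks. N-C1 peaks overlapped 65.6% (64.7 to 66.5%, 7600), where the whole list had 83.9% and the other peaks 92.1%. 5451 members (47.1%) were in both construct lists, 581 (5.02%) in the ∆HD list alone and 2149 (18.6%) in the N-C1 list alone. The remaining 3402, or 29.4%, were in neither, compared with 6.71% of the other peaks. In the weakest fold group, within which folds were not matched further, ∆HD peaks covered 50.3% of the members and 79.4% of the others, and N-C1 peaks 63.3% and 89.1%. Camptothecin-only peaks stood nearer to the members, with 56.7% in the ∆HD list and 73.2% in the N-C1 list. Both construct lists were longer than any full-length list, with 50537 and 62856 peaks against 22877 in untreated cells, and the part of list size in these shares was not tested.

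Construct peaks at members were of moderate strength within their own lists. ∆HD peaks at members had a median fold of 6.13 (quartiles 5.28 and 7.45), at the percentile 43.7 of the ∆HD list on the median, and those at other ICRF-193 peaks 9.53, at percentile 76.4. The N-C1 medians were 5.87 and 10.0, at percentiles 47.3 and 80.1. Members thus stood near the middle of both construct lists, and the other ICRF-193 peaks in their upper part.

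A/T content separated the members that the constructs shared from those they did not. Members in both lists averaged 71.7% A/T and members in neither 76.8%. From under 65% through classes of 5 percentage points to 85% or more, the share of members in the ∆HD list was 75.9%, 76.1%, 61.6%, 36.8%, 5.50% and 0.641%, the last being 1 of 156 members. The N-C1 shares were 81.0%, 84.5%, 79.1%, 51.1%, 8.46% and 0.641%. The shares of the other ICRF-193 peaks were higher in every class and went from 96.1% in the lowest class to 42.2% and 10.2% in the highest pair for ∆HD, and from 98.5% to 61.4% and 36.9% for N-C1. The whole lists differed in the same respect. Peaks with 80% A/T or more made up 7.91% of the ICRF-193 list, 7.22% of the untreated list and 8.51% of the camptothecin list, but 1.06% of the ∆HD list and 1.43% of the N-C1 list. At 85% or more the ∆HD list held 11 peaks and the N-C1 list 118 in all. Peaks of that composition were thus scarce in the construct lists as a whole, and the part of the libraries' own base composition in it was not tested.

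**Figure D4:**
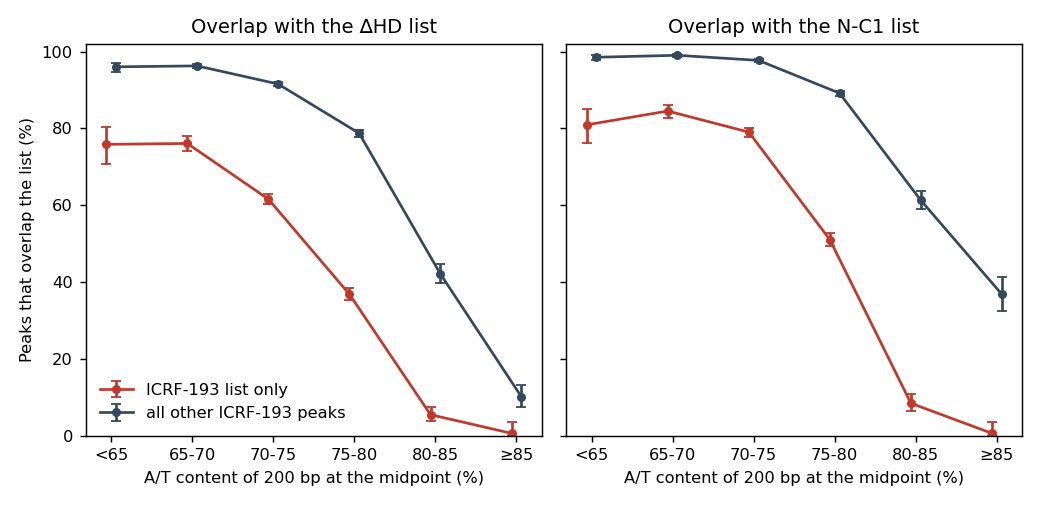
Share of peaks overlapping the ∆HD list and the N-C1 list (percent, with 95% Clopper-Pearson intervals) by A/T content of the central 200 bp, for members and for the other ICRF-193 peaks. Members lie below the other peaks in every class of both panels, and at 85% A/T or more 0.641% of them were in each list.

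Nearly all members lay outside ATAC-seq peaks. Native ATAC-seq peaks overlapped 2.53% of the members (2.25 to 2.83%, 293), against 3.2% of the whole ICRF-193 list and 3.50% of its other peaks. ATAC-seq peaks of Satb1-expressing cells overlapped 2.70% (2.41 to 3.01%, 313), against 3.92% and 4.47%. The lists themselves cover 5.76% and 8.95% of hg19. In the weakest fold group the values were 2.57% of members and 5.81% of others for the native list and 3.08% and 8.66% for the Satb1 list. An overlap of any base favours wider peaks, and the members were the narrower, with median widths of 292 and 408 bp. Counted by summit over all peaks, the native shares were closer, at 1.42% of members and 1.56% of others. The Satb1 list then had 1.72% and 2.26%. 227 members were in both ATAC-seq lists, and 86 in that of Satb1-expressing cells alone. The 379 members in at least 1 of them (3.27%) had a median fold of 4.99 and 71.0% A/T. Neither ATAC-seq list was made after ICRF-193, so accessibility at the members under the drug is not analysed here.

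The labelled cell line was checked by its markers in the ATAC-seq lists. The promoters of 10 of 10 basal mammary markers (among them KRT5, KRT14 and TP63) overlapped a peak in both lists, and those of 7 and 8 of 10 luminal markers in the native and the Satb1 list. T cell markers did so for 2 and 3 of 10. Neuronal markers, however, did so for 9 and 8 of 10, beside 76.9% and 80.4% of all protein-coding genes, and open promoters thus told the lineages apart only in part.

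The strongest members found in both ATAC-seq lists are given as single sites. The first, chr11:124171017-124171422, lay 9513 bp from the start of OR8D1, an olfactory receptor gene, with a fold of 9.09 after ICRF-193, 10.9 for ∆HD and 9.86 for N-C1. Its absence from the untreated and camptothecin lists is the rule itself, and 47.1% of all members were likewise in both construct lists. The next pair both had a fold of 8.50. One of them, chr21:19298077-19298500, was in an intron of CHODL, which encodes a C-type lectin, and was in both construct lists with folds of 5.75 and 6.39. The other, chr2:226928026-226928391, lay between genes and was in the N-C1 list alone of the constructs, with a fold of 5.0.

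The 6 strongest members were mostly sites without a construct peak. The member chr20:40173103-40173505 in an intron of CHD6, a chromatin remodeller, had a fold of 11.4 from 57 reads and 85% A/T. The second, chr12:61895920-61896323, had 11.0 from 55 reads and stood 858 bp from a camptothecin peak. The third, chr10:118003675-118004119 in an intron of GFRA1, a receptor for glial cell line-derived neurotrophic factor, had 10.8 from 54 reads with 5 matches and 94.5% A/T. A member in an intron of MPHOSPH10, chr2:71368039-71368429, and another between genes, chr2:193976624-193977099, both had 10.7 from 53 reads, and the last of the 6, chr4:157308585-157308972, had 10.5 from 52 reads with 8 matches. None of these 6 was in the N-C1 list, and only chr2:193976624-193977099 was in the ∆HD list, with a fold of 4.99. Of the 40 strongest members, 47.5% (19) were in neither construct list, and the A/T content of the 40 averaged 81.1% ± 7.04 (SD). Over all members, strength did not set these groups apart. The median fold was 5.12 in members of neither construct list and 5.19 in members of both. A second strong member without a heptamer, chosen after the values were seen, was chrX:3565325-3565748 in an intron of the kinase gene PRKX, with a fold of 10.3 and 90.5% A/T.

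The 4 members richest in matches spanned a wide range of composition. Beside the 11 matches at chr2:230983545-230983985, 9 matches each were found at chr2:209637743-209638113 with a fold of 9.29 and 95.5% A/T, at chr1:69686265-69686627 with 7.53 and 92% A/T, and at chr2:105670968-105671323 in MRPS9, a gene of the mitochondrial ribosome, with 5.19. The MRPS9 site had only 62.5% A/T, less than its flanks at 66.8%, and it alone of the 4 was in the ∆HD list, with a fold of 5.94. The printed repeat shows 1 match in each unit between G/C-rich stretches.

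Members were rare at promoters and in exons, and so were the other peaks. By protein-coding transcripts of GENCODE, 62.3% of the members (7214) lay between genes, 36.1% (35.2 to 37%, 4181) in introns, 1.16% (134) in exons and 0.466% (54) at promoters, meaning 1000 bp upstream to 100 bp downstream of a start. The other ICRF-193 peaks had 61.7%, 36.8%, 1.09% and 0.466%, and hg19 itself 55.5%, 40.4%, 2.61% and 1.51%. The median distance to the nearest start was 129428 bp in the members and 115091 bp in the others. In genes of 200 kb or more the 2678 summits of members were spread over the body, with 19.8%, 21.3%, 21.2%, 21.4% and 16.3% in 5 equal stretches from start to end.

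Among promoters, the strongest members were at GOLGA8J with a fold of 7.66, GOLGA8R with 7.39, SETDB2 with 7.33, TSHB with 7.14 and GOLGA8O with 6.94. SETDB2 encodes a histone H3 lysine methyltransferase and TSHB the beta subunit of thyroid-stimulating hormone, and their summits were 607 and 258 bp from the start. The GOLGA8 genes are near-identical copies of one another, so reads could be placed at the wrong copy and these 3 positions are uncertain. None of the 5 was in a construct list or an ATAC-seq list. In exons the leading members were at ZPBP and SCAF11, both with a fold of 7.92, and at TMCO3 with 7.53. Of these only the SCAF11 site, 421 bp from a start, was in the construct lists, with folds of 4.43 for ∆HD and 9.34 for N-C1.

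Long genes carried more members per unit of length, as they did other Satb1 peaks. The gene that held a member's summit had a median length of 277379 bp (quartiles 116464 and 582066, n = 4455), and 257191 bp for the other ICRF-193 peaks, where all protein-coding genes had a median of 26768 bp. The density was 1.77 members per Mb in genes under 50 kb, then 2.96, 3.96 and 4.77 up to 200 kb, 500 kb and 1 Mb, and 5.50 in genes over 1 Mb, with 4.54 outside genes. The other peaks followed the same course at 4.24, 7.01, 8.61, 10.1 and 12.7 per Mb. Members were consequently a near constant 29.4%, 29.7%, 31.5%, 32.0% and 30.2% of ICRF-193 peaks in these classes and 31.2% outside genes, around the 31% of the whole list. A/T content ran along with length, at 53.3%, 57.6%, 59.6%, 60.8% and 62.2%. Per 1000 heptamer matches the members went from 3.17 in the shortest class to 3.94, 4.69, 5.21 and 5.45 in the longest, with 5.37 outside genes. The other peaks rose in the same way, at 7.59, 9.33, 10.2, 11.1 and 12.6, with 11.8 outside genes.

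**Figure D5:**
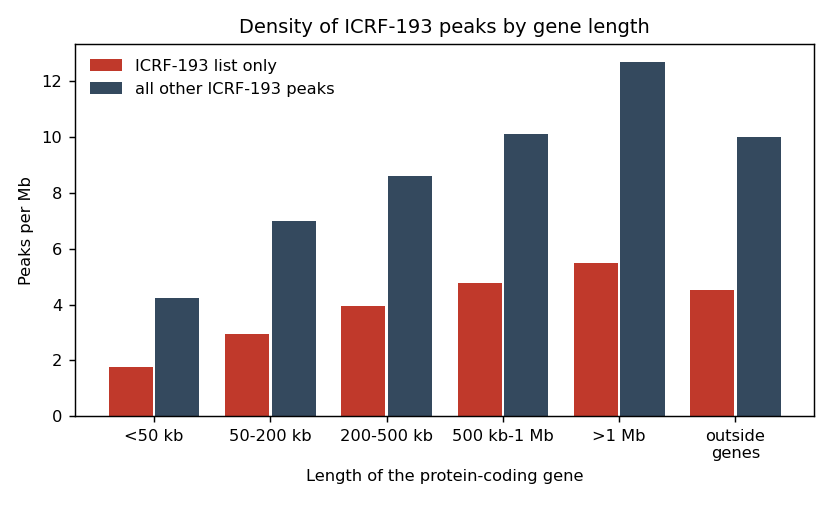
Peaks per Mb of sequence (bars from 0) by length of the protein-coding gene, and outside genes, for members and the other ICRF-193 peaks. Members rise from 1.77 to 5.50 per Mb and the other peaks from 4.24 to 12.7.

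Of 19405 protein-coding genes, 2292 (11.8%) held at least 1 member, 846 at least 2, 157 at least 5 and 37 at least 10. CSMD3, which encodes a large transmembrane protein with CUB and sushi domains, held the most, 33 of its 100 ICRF-193 peaks, and had 50 peaks without drug. PCDH15, a protocadherin of the hair cell tip link (chr10:55562531-57387702), had 27 of 61, and PTPRD, a receptor tyrosine phosphatase of synapses (chr9:8314246-10613002), had 26 of 66. EYS, a matrix protein of photoreceptors, had 20 of 68, and VPS13B, a lipid transfer protein at the Golgi, 18 of 41. FSTL5 and NAALADL2 had 17 each, of 35 and 43, and RIMS2 of the presynaptic active zone 16 of 51. The cadherin CDH18 and the SLIT receptor ROBO1 had 16 each, of 37 and 32. All 10 genes also had peaks without drug, from 12 in FSTL5 to 50 in CSMD3.

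In some long genes most ICRF-193 peaks were members. The 6 given here were picked for the largest shares, each from only 13 to 21 peaks, so high values follow in part from the choice. PTK2, the gene of focal adhesion kinase, led with 10 of 13 (76.9%), where the untreated list had 3 peaks and the camptothecin list 2. KCNQ5, a potassium channel gene, followed with 9 of 15 (60%) and DGKB, a diacylglycerol kinase gene, with 12 of 21 (57.1%). CCDC91 and SEMA3A, a secreted guidance cue, had 9 of 16 each and the chondroitin synthase CHSY3 8 of 15 (53.3%). At the other end, DAB1 of the reelin pathway spans 1551956 bp and had no member among its 10 ICRF-193 peaks, 9 peaks being present without drug. KAZN, OPCML, PTPRN2, DLGAP2 and GRID1 likewise had none, with 1 to 3 ICRF-193 peaks each. A count of 0 in genes with so few peaks says little of the gene.

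Of the 2292 genes with a member, 671 held no untreated or camptothecin peak. Their median length was 67881 bp, where all protein-coding genes had 26768 bp and all genes with a member 150560 bp. The share of all 19405 genes that lack such peaks is not given beside it, so the count only describes these 671 genes. The fullest of these, named after their values were seen, were PLEKHA5, MAN2A1 and ST8SIA4 with 4 members each, and FHOD3 and SPATA5 with 3 each. PLEKHA5 encodes a protein with a pleckstrin homology domain, and its members had folds of 6.36, 3.63, 6.55 and 4.80, the first at 790 bp from a start and the third at 547 bp. MAN2A1, a Golgi mannosidase of N-glycan processing, had folds of 5.58, 5.77, 6.89 and 4.96, and the first was in both construct lists. ST8SIA4, a polysialic acid synthase, had 4.80, 3.82, 5.19 and 5.38, of which the last pair were in the ∆HD list.

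Groups of long genes held members in about the proportion of the whole list. Common fragile site genes, very long genes prone to breakage, had a member in 19 of 20, beside 11.8% of all genes, and in all 160 of 530 ICRF-193 peaks (30.2%) and 5.54 per Mb. NAALADL2 with 17, DLG2 with 15 and CTNNA3 with 14 held the most. Synaptic adhesion genes had a member in 24 of 30 and 122 of 395 peaks (30.9%), led by PTPRD with 26 and NEGR1 with 10. Glutamate receptor genes had one in 10 of 26 and 48 of 154 peaks (31.2%), among them GRIK2 with 10. Cadherins and protocadherins stood at 12 of 33 genes, 78 of 226 peaks (34.5%) and 6.96 per Mb, the densest of these lists, with PCDH15 and CDH18 at 27 and 16 at the head. All genes together held 3.46 members per Mb.

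The groups nearer to the epithelial cell held few members in all, at 3.08 per Mb in basal mammary genes, 3.43 in ERBB receptors and neuregulins and 2.33 in genes of the epithelial to mesenchymal transition, beside the 3.46 of all genes. Basal mammary genes had members in 3 of 20, beside 11.8% of all genes, and in 6 of 21 peaks (28.6%), namely TP63 with 3 of its 6, FAT1 with 2 of 3 and DST with 1 of 5. The members in TP63, the master regulator of basal epithelium, had folds of 6.75, 4.41 and 5.58, and only the last was in the ∆HD list. ERBB receptors and neuregulins had members in 3 of 14 genes and 15 of 68 peaks (22.1%), of which ERBB4 had 10 of 35, NRG3 4 of 18 and NRG1 1 of 11. Genes of the epithelial to mesenchymal transition had members in 3 of 20 and 4 of 18 (22.2%), with ZEB1 at 2 and TGFB2 and TWIST1 at 1 each.

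Among topoisomerases and tyrosyl-DNA phosphodiesterases only TOP2B had a member, 1 of 9 genes and 1 of 5 ICRF-193 peaks. TOP2B encodes topoisomerase II beta, itself a target of ICRF-193, and this was its sole ICRF-193 peak, with none without drug. TOP2A also had 1 ICRF-193 peak and none without drug, but that peak was not a member. The TOP2B site, chr3:25655594-25655973 in an intron, had a fold of 7.14 and 74% A/T, no heptamer, and a peak in both construct lists. Chromosome architecture genes had members in 4 of 23, namely STAG1 with 3 of 7, NIPBL and STAG2 with 2 of 4 each and HNRNPU with 1 of 2. p53 response genes had members in 2 of 20, CCNG1 with 1 of 3 and MDM2 with 1 of 1. The MDM2 site, chr12:69219833-69220133 in an intron, had a fold of 4.99, 2 matches and a peak in both construct lists. Of all protein-coding genes, 11.8% held a member. In the order given, these lists held 2.28, 2.77 and 2.99 members per Mb, less than all genes together. With 1 or a few peaks per gene, these counts describe single sites and no group.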

How the data were processed

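The files were peak lists of Satb1 ChIP-seq and ATAC-seq in MCF10A, 1 list per condition. Per the labels and the methods of the study, the authors trimmed reads with cutadapt, aligned them to hg19 with Bowtie2 and used MACS2 with the input library as control (broad peaks for ATAC-seq); hg19 and these tools are named in the submitters' processing notes, without versions, and how the duplicates of the study entered each list is not given in the sources used here. The deposited columns were a fold enrichment (a ratio to local background), −log10 p-values and −log10 q-values and an integer score as MACS2 wrote them. The coverage by extended reads behind each list was solved from fold and p at summits on the genome-wide background.

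Members were ICRF-193 peaks with no overlap of 1 bp with the untreated and camptothecin lists. The overlap calculation was compared with bedtools 2.31.1 on simulated intervals. Heptamers were counted in 400 bp and A/T content in 200 bp of the GRCh37 sequence at the midpoint (pysam 0.24.0, numpy 2.4.6, pandas 2.3.3). Summits were classed by protein-coding transcripts of GENCODE 44 lifted to GRCh37, in the order promoter, exon, intron, between genes; a gene's length is that of its whole annotated span. Shares carry 95% Clopper-Pearson intervals (scipy 1.17.1), which cover counting error only; figures used matplotlib 3.10.9. No test was run, since each condition had 1 list, and the precision is limited by that. The calculations were tested on simulated data.

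Members and gene lists were chosen with earlier results of these data known. Named peaks were the 6 strongest, the 4 with most matches, and the strongest 3 in both ATAC-seq lists, 5 at promoters and 3 in exons. Named genes were the 10 with most members, the 6 of 200 kb or more and at least 8 members with the largest share, the 6 of 500 kb or more with the fewest per Mb, and per list genes among the 4 with most members. A gene that this rule names is not reported here. Mouse thymocyte lists were not used here. The alternatives tried were other windows, a narrower consensus, other overlap rules, stricter thresholds and all transcript types.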

Additional observations from a re-analysis of the deposited data

How the results depend on the processing

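Of 43 alternative values over 11 results, 15 lay within the interval of the value reported (for the number of members, within 1.5 times) and 28 did not. The number of members was 6299 among peaks with a fold of at least 5. The share with a heptamer was 79.4% in 150 bp, 54.3% for CTAATAA or CTAATAG on either strand and 94.9% at a −log10 q of at least 5, and the mean number of matches 1.32, 0.702 and 2.16. A/T content was 74.6% in 100 bp, where the other peaks had 74.7% and the order turned, 71.6% in 400 bp and 73.9% at that q. With transcripts of every type, 53.4% of members were in introns and 42.1% between genes. The median gene length was 150560 bp with each gene counted once. The native and Satb1 ATAC-seq shares were 1.42% and 1.72% by summit, 1.36% and 1.68% with 50% of the peak covered, and 1.99% and 2.14% with ATAC-seq peaks of −log10 q of at least 5. The ∆HD and N-C1 shares were 48.6% and 63.4% by reciprocal overlap of 50%, 42.1% and 49.2% with construct peaks of fold 5 or more, 54.0% and 67.9% with members of −log10 q of at least 5, and 55.9% and 70.4% with members under 80% A/T, an alternative chosen after seeing the data; N-C1 was 64.4% by summit. The cause was not tested. With 1 list per condition none could be left out. No paired analysis was possible because each condition had 1 list and no result came from a test.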

Other observations

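Neighbouring heptamers in the members showed little of a helical period. Pairs lying 20, 30, 40 or 50 bp apart (within 2 bp) were 1.02 times as frequent as pairs midway between those distances (2310 of 13632 pairs), where the ratio was 1.12 in the other ICRF-193 peaks and 0.971 outside every MCF10A Satb1 list. Pairs 8 to 12 bp apart were 7.08% of pairs in the members, 10.1% in the others and 1.90% outside the lists.

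Among the autosomes, members were from 21.6% of ICRF-193 peaks on chromosome 19, which has 51.6% A/T, to 33.3% on chromosome 4 with 61.8%, at 0.663 and 6.30 members per Mb. Members were seldom clustered: 15.0% (1735) had another member within 10 kb, and the median distance to the next was 108314 bp. TA repeats of at least 20 bp were found in 17 members (0.147%) and 23 other peaks (0.0893%), and an uninterrupted A/T run of at least 50 bp in 0.717% and 0.714%.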
